A study of Homo sapiens with 9 samples.

Results

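The gene set described here comprises 53 genes of DNA replication, running from the origin recognition complex through licensing factors and the MCM helicase to the polymerases, the sliding clamp and the fork protection proteins. Members were found by symbol in the authors' deposited table and matched by Ensembl identifier to the count files. They make up 53 of 64253 gene identifiers, each symbol had a single identifier, and all 53 had enough reads to be tested. RNA was sequenced from IMR90, a line of normal human lung fibroblasts with a limited replicative lifespan, in 3 groups of 3 libraries. Control cells carried the pLKO.1 lentiviral vector without a targeting hairpin (an empty vector in the sample labels, a GFP vector in the treatment protocol). The shRRM2 group, labelled senescence, carried a hairpin against RRM2, the regulatory subunit of ribonucleotide reductase, which makes deoxyribonucleotides. The shRRM2/shp16 group, labelled senescence bypass, carried that hairpin and a hairpin against p16, the CDK inhibitor encoded by CDKN2A. All groups grew at 2% oxygen, were used at population doubling 30 and were selected with puromycin at 3 ug/mL for 7 days. An interval of 24 hours between infections is given for all 3 groups. No group carried the p16 hairpin alone, 1 hairpin is named per target, and whether the replicates stem from separate infections is not given, so p-values measure only the spread between these libraries. The comparison of control with shRRM2 asks how the replication genes differ in the senescent cells, and that of shRRM2/shp16 with shRRM2 asks how they differ once p16 is also targeted.

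Replication starts at origins bound by the origin recognition complex (ORC). In G1 phase CDC6 and CDT1 load the ring of MCM2 to MCM7 onto DNA, a step called licensing, and geminin (GMNN) holds CDT1 back afterwards. In S phase the kinase CDC7 with DBF4 and the firing factors recruit CDC45 and the GINS complex, which turn the MCM ring into the active helicase, and polymerases alpha, delta and epsilon follow it with the clamp PCNA. Many of these genes are transcribed under E2F factors, which the retinoblastoma protein restrains, and p16 acts on that protein by inhibiting CDK4 and CDK6.

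The libraries held 15770895 to 24873291 counts in genes, and levels are given as CPM (counts scaled by TMM-corrected library size), for replicates a, b and c in that order. Averages given as 3 values are for control, shRRM2 and shRRM2/shp16 in that order. RRM2 averaged 485 ± 5.23 CPM in control (SD, n = 3), 62.1 ± 1.86 in shRRM2 and 177 ± 3.00 in shRRM2/shp16. Thus RRM2 was at 12.8% of control in shRRM2 but at 36.5% in shRRM2/shp16, so the groups that share the RRM2 hairpin did not share a level of RRM2 RNA. The p16 hairpin and the higher RRM2 level cannot be told apart in the differences between these 2 groups. Below, "with the p16 hairpin" names the shRRM2/shp16 group and no cause. CDKN2A averaged 6.02 ± 0.113, 6.50 ± 0.464 and 4.28 ± 0.321 CPM in the same order, and changed by -0.60 ± 0.13 on the log2 scale (adjusted p = 7.01e-05) from shRRM2 to shRRM2/shp16. From control to shRRM2 CDKN2A did not pass the test, at 0.11 ± 0.12 (adjusted p = 0.431), and the libraries of these groups overlapped. The proliferation marker MKI67 averaged 1036, 322 and 389 CPM. All 8 fibroblast markers examined were detected, with summed levels of 26840 to 27700 CPM in control, 26260 to 27050 in shRRM2 and 22100 to 22700 in shRRM2/shp16. The 3 epithelial, 3 endothelial and 3 blood markers each summed to at most 3.30 CPM in any library, and KRT5 was at 0 in all 9. Of the uniquely aligned reads, 17.6% to 18.9% fell in no annotated gene in control, 27.7% to 28.8% in shRRM2 and 23.5% to 24.4% in shRRM2/shp16. The part of MKI67, the fibroblast markers and these reads in the results on the 53 genes was not tested.

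In shRRM2, 50 of the 53 replication genes fell below control, 1 rose (ORC4) and 2 did not pass the test (ORC3 and RFC1). Calls are from edgeR's quasi-likelihood test at a Benjamini-Hochberg adjusted p under 0.05, the source of each adjusted p given here, and each log2 fold change is followed by ± its standard error. Of all 16561 genes tested, 31.8% were called lower and 29.0% higher in this comparison. The median log2 fold change of the members was -0.86, beside 0.0023 for all tested genes, and the members ran from -1.40 for PRIM1 to 0.30 for ORC4. At least 2-fold lower were 12 members, against 3.26% of all tested genes: ORC1, GMNN, MCM7, MCM8, CDC45, CDC7, DBF4, TICRR, RECQL4, POLA1, PRIM1 and TIMELESS. In bulk RNA, fewer cells in S phase and less of each RNA per cell cannot be told apart.

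The set was not back at control levels in shRRM2/shp16. In shRRM2/shp16 against shRRM2, 29 members were lower, 5 rose (ORC2, ORC5, MCM7, POLA1 and TIMELESS) and 19 did not pass the test. Among the 29 were ORC3 and RFC1, which were not called in shRRM2 against control. Of all tested genes, 29.1% were called lower and 31.9% higher. Here the share of members called lower was above the background share and the share called higher below it, with a median log2 fold change of -0.16 for members and 0.0115 for all tested genes. In shRRM2/shp16 against control, 51 members were lower, ORC4 was higher and ORC2 did not pass the test, where 32.4% of all tested genes were lower and 30.0% higher. The median was -1.10 (0.0147 for all tested genes), and 32 of the 53 members were at least 2-fold lower, against 6.0% of all tested genes. The comparisons share libraries, so their values are set side by side and are not independent of each other. Libraries did not overlap for 52 of the 53 members in shRRM2 against control. The number was 35 in shRRM2/shp16 against shRRM2 and 53 in shRRM2/shp16 against control. Of all 16561 tested genes, 10530, 10723 and 10956 did not overlap, in the same order. For shRRM2/shp16 against shRRM2 the members' share was near that of all genes. Summed over the 53 genes, the level was 2800, 2720 and 2695 CPM in control, 1607, 1621 and 1593 in shRRM2 and 1422, 1405 and 1396 in shRRM2/shp16. The sum was highest in every control library and lowest in every shRRM2/shp16 library, with no overlap between groups (exact permutation test, two-sided, p = 0.1 for each pair, the smallest that 3 against 3 libraries allow).

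**Figure D1:**
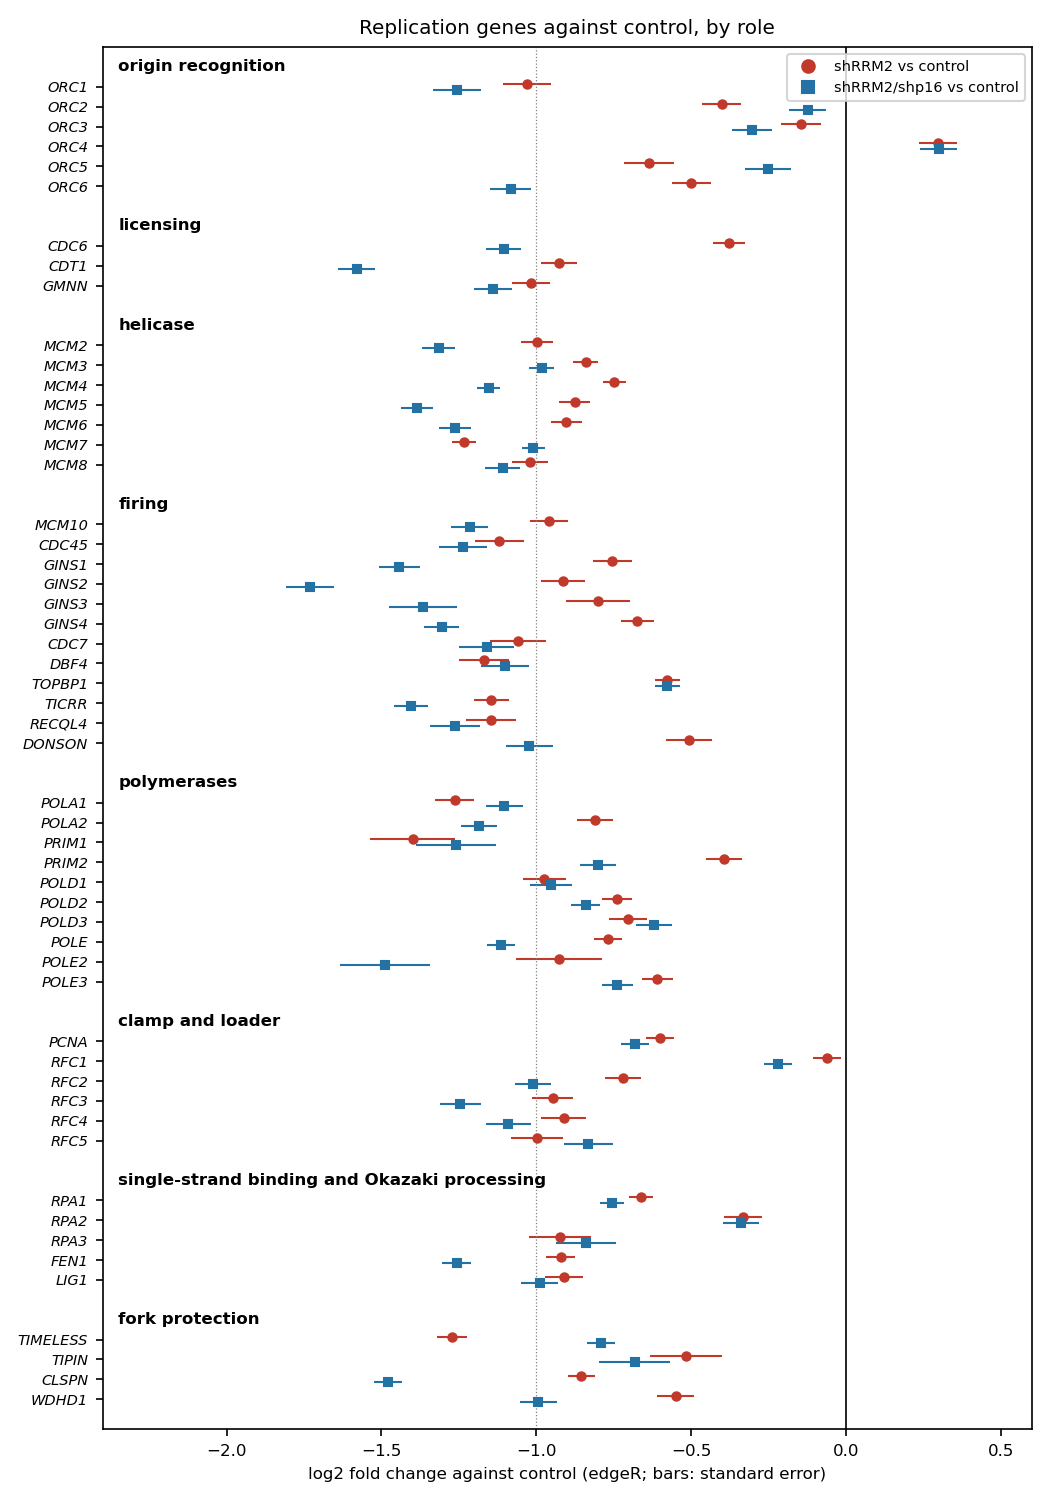
Log2 fold change against control of each of the 53 genes (horizontal axis, bars are standard errors from edgeR), grouped by role, with circles for shRRM2 and squares for shRRM2/shp16. Nearly all points lie left of 0, ORC4 lies right of it in both comparisons, and the squares of GINS2, CDC6, GINS1 and CDT1 lie well to the left of their circles.

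**Figure D2:**
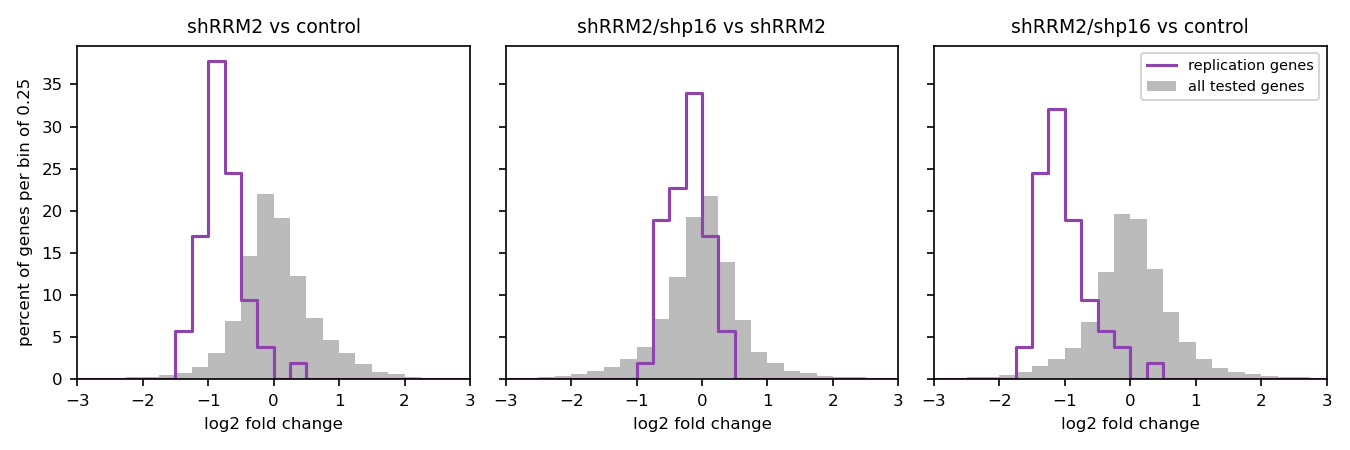
Percent of genes in each log2 fold change bin of width 0.25 for the 53 members (line) and all tested genes (grey bars) in the 3 comparisons. The members' distribution sits left of that of all genes against control, with medians of -0.86 and -1.10, and overlaps it more in shRRM2/shp16 against shRRM2, where the median was -0.16.

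The promoters of these genes were examined for short motifs, since most members moved together and E2F factors are known to act on many of them. Windows of 300 bases, from 250 bases before a gene start to 50 after it, were available from RefSeq (GRCh38.p14) for 45 of the 53 members. Some members had several windows, 59 in all, and a gene counted as matched if any of its windows held the letters. The E2F letters searched on both strands were TTTCCCGC, TTTCGCGC, TTTGCCGC and TTTGGCGC, 4 strings that do not contain one another. A match was present in at least 1 window of 23 of the 45 members (51.1%). The same letters were found in 655 of 10288 tested genes with a window (6.4%). Counted by window, 23 of the 59 member windows held a match, beside 3.3% of all 34796 distinct windows. The letters TTTGAA, the core of the cell cycle homology region, matched in 2 of 45 members (4.4%) against 14.1% of tested genes. CCAAT matched in 26 of 45 (57.8%) against 43.0%. Shown here are the 3 members with the lowest and the 2 with the highest log2 fold change in shRRM2/shp16 against shRRM2 among those with a window, read 5′ to 3′ on the gene's strand, with E2F matches in capitals.
GINS2: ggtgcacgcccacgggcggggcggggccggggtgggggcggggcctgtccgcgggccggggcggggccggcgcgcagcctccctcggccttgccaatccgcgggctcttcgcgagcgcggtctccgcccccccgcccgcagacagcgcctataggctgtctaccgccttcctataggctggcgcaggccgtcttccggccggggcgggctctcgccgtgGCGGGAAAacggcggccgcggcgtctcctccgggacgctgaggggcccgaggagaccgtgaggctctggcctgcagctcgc
CDC6: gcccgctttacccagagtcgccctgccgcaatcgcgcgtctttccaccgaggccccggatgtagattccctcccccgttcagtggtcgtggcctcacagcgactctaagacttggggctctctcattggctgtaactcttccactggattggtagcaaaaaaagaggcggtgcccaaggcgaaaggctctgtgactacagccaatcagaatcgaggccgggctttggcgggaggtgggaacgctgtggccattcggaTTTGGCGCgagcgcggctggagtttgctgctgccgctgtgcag
GINS1: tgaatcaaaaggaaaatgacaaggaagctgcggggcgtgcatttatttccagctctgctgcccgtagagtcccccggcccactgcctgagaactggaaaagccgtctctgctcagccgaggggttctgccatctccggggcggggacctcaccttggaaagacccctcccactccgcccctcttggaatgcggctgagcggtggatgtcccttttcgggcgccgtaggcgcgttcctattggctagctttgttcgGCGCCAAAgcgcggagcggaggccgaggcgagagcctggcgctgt
ORC5: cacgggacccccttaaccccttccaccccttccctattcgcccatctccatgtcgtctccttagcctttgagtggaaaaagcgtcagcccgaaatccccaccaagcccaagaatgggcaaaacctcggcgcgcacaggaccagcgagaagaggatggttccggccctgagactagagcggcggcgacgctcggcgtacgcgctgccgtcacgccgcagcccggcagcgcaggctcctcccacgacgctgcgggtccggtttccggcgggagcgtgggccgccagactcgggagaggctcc
TIMELESS: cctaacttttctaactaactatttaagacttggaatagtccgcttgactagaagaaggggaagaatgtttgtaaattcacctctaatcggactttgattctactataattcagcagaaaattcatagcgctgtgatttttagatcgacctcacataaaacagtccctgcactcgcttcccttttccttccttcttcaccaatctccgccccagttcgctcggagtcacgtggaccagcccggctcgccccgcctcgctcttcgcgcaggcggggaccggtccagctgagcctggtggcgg
These windows lie at chr16:85688905-85689204 (minus strand), chr17:40287629-40287928 (plus), chr20:25407423-25407722 (plus), chr7:104207964-104208263 (minus) and chr12:56449377-56449676 (minus). An E2F string was present in GINS2, CDC6 and GINS1, the 3 that fell furthest, and in neither ORC5 nor TIMELESS, the 2 that rose most. Of the other members called higher, MCM7 (not in every window) and POLA1 held an E2F string and ORC2 did not. Members called lower without such a string included ORC6, WDHD1 and PRIM2. Over the whole set the separation was small: the median log2 fold change in shRRM2/shp16 against shRRM2 was -0.30 for the 23 members with a match and -0.12 for the 22 without. In shRRM2 against control these medians were -0.90 and -0.83. By role, a match was present in 5 of 5 helicase genes with a window, 3 of 3 licensing genes, 5 of 9 firing genes, 4 of 9 polymerase genes, 2 of 4 fork protection genes, 2 of 6 clamp and loader genes, 1 of 3 single-strand binding and Okazaki genes and 1 of 6 origin recognition genes. A match of letters is a description and not a bound site, and no match says only that these letters are not in this window.

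The 6 subunits of ORC did not move as a block. In shRRM2, ORC1, ORC2, ORC5 and ORC6 fell, ORC4 rose and ORC3 was not called, and the group median log2 fold change was -0.45. ORC1, the large ATPase subunit, stood at 23.8, 22.1 and 23.8 CPM in control, 10.8, 11.5 and 11.8 in shRRM2 and 9.56, 9.31 and 10.4 in shRRM2/shp16. The 3 groups of ORC1 values did not overlap, and the log2 fold change in shRRM2 against control was -1.03 ± 0.08 (adjusted p = 2.28e-15), the lowest of the group. ORC4, another ATPase subunit, stood at 29.0, 26.9 and 30.4 CPM in control, 35.3, 34.6 and 36.1 in shRRM2 and 33.4, 37.9 and 34.7 in shRRM2/shp16. ORC4 was higher than control in every library of both hairpin groups, at 0.30 ± 0.06 (adjusted p = 3.86e-05) in shRRM2, while those 2 groups overlapped. Per unit of length, the ratio of ORC1 to ORC4 fell from 2.28 ± 0.07 in control to 0.908 ± 0.035 in shRRM2 and 0.781 ± 0.079 in shRRM2/shp16 (SD, n = 3; exact permutation p = 0.1 for each pair, the smallest possible).

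With the p16 hairpin, ORC5 and ORC2 moved back towards control and ORC6 moved further away. ORC5 stood at 17.6, 18.1 and 17.0 CPM in control, 11.7, 11.7 and 10.6 in shRRM2 and 15.3, 14.9 and 14.0 in shRRM2/shp16. Its shRRM2/shp16 libraries lay between the other 2 groups, at 0.38 ± 0.08 (adjusted p = 0.000117) from shRRM2 and -0.25 ± 0.08 (adjusted p = 0.00341) from control. The difference from control was lost with libraries scaled by total counts, at an adjusted p of 0.083. ORC6, the smallest subunit, stood at 33.1, 31.6 and 31.5 CPM in control, 21.3, 22.8 and 23.9 in shRRM2 and 14.5, 16.2 and 14.7 in shRRM2/shp16. It fell in steps with no overlap, with log2 fold changes of -0.50 ± 0.06 and then -0.58 ± 0.07 (adjusted p = 2.48e-09). ORC2 averaged 28.7, 21.8 and 26.4 CPM in control, shRRM2 and shRRM2/shp16, rising by 0.28 ± 0.06 between the last 2, and its distance from control, -0.12 ± 0.06 (adjusted p = 0.0674), passed the threshold in 1 of 18 alternatives, without control replicate c (adjusted p = 0.0436). ORC3 averaged 26.1, 23.6 and 21.1 CPM. For ORC3 and ORC1 the fall from shRRM2 to shRRM2/shp16 was close to the threshold, at -0.16 ± 0.07 (adjusted p = 0.0385) and -0.22 ± 0.09 (adjusted p = 0.0302). The ORC3 call was lost without shRRM2 replicate a or c or any shRRM2/shp16 replicate (adjusted p = 0.0808 to 0.182), and the ORC1 call without shRRM2 replicate b or c or shRRM2/shp16 replicate a or b (0.0687 to 0.124). Both calls were also lost with no low-count filter, total counts, DESeq2 and limma on the authors' RPKM (adjusted p = 0.0642 to 0.29). Against control, ORC3 in shRRM2 was at -0.15 ± 0.07 (adjusted p = 0.051) and passed in 4 of 18 alternatives, among them without control replicate b (0.04), without shRRM2 replicate a (0.0323) and with no low-count filter (0.0246).

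All 3 licensing genes fell in shRRM2, and the loaders CDC6 and CDT1 fell again with the p16 hairpin, while GMNN, the inhibitor of CDT1, was not called. CDC6, the ATPase that loads MCM with ORC, stood at 51.4, 45.6 and 49.4 CPM in control, 37.1, 38.0 and 37.8 in shRRM2 and 23.6, 22.0 and 22.7 in shRRM2/shp16. The 3 groups were fully separated, with a first step of -0.38 ± 0.05 (adjusted p = 4.42e-08) and a second of -0.73 ± 0.06 (adjusted p = 2.51e-14). CDT1, which brings MCM to ORC, stood at 47.6, 47.0 and 48.4 CPM in control, 25.5, 26.4 and 23.3 in shRRM2 and 15.1, 15.8 and 16.9 in shRRM2/shp16. Its log2 fold change was -0.93 ± 0.06 from control to shRRM2 and -0.65 ± 0.07 (adjusted p = 4.38e-11) from there to shRRM2/shp16, where it reached 33.4% of control. GMNN stood at 50.4, 48.7 and 43.7 CPM in control, 22.3, 25.3 and 23.2 in shRRM2 and 22.8, 21.8 and 20.4 in shRRM2/shp16. Its 2 hairpin groups overlapped, at -0.12 ± 0.07 (adjusted p = 0.123) between them and -1.02 ± 0.06 from control to shRRM2. The ratio of CDT1 to GMNN per unit of length was 0.747 ± 0.067 in control, 0.791 ± 0.054 in shRRM2 and 0.549 ± 0.063 in shRRM2/shp16 (SD, n = 3). Control and shRRM2 did not separate (exact permutation p = 0.5), and the shRRM2/shp16 ratios lay below every ratio of the other groups (p = 0.1, the smallest possible). Each of the 3 licensing genes held an E2F string in at least 1 promoter window, though not in every window of GMNN.

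**Figure D3:**
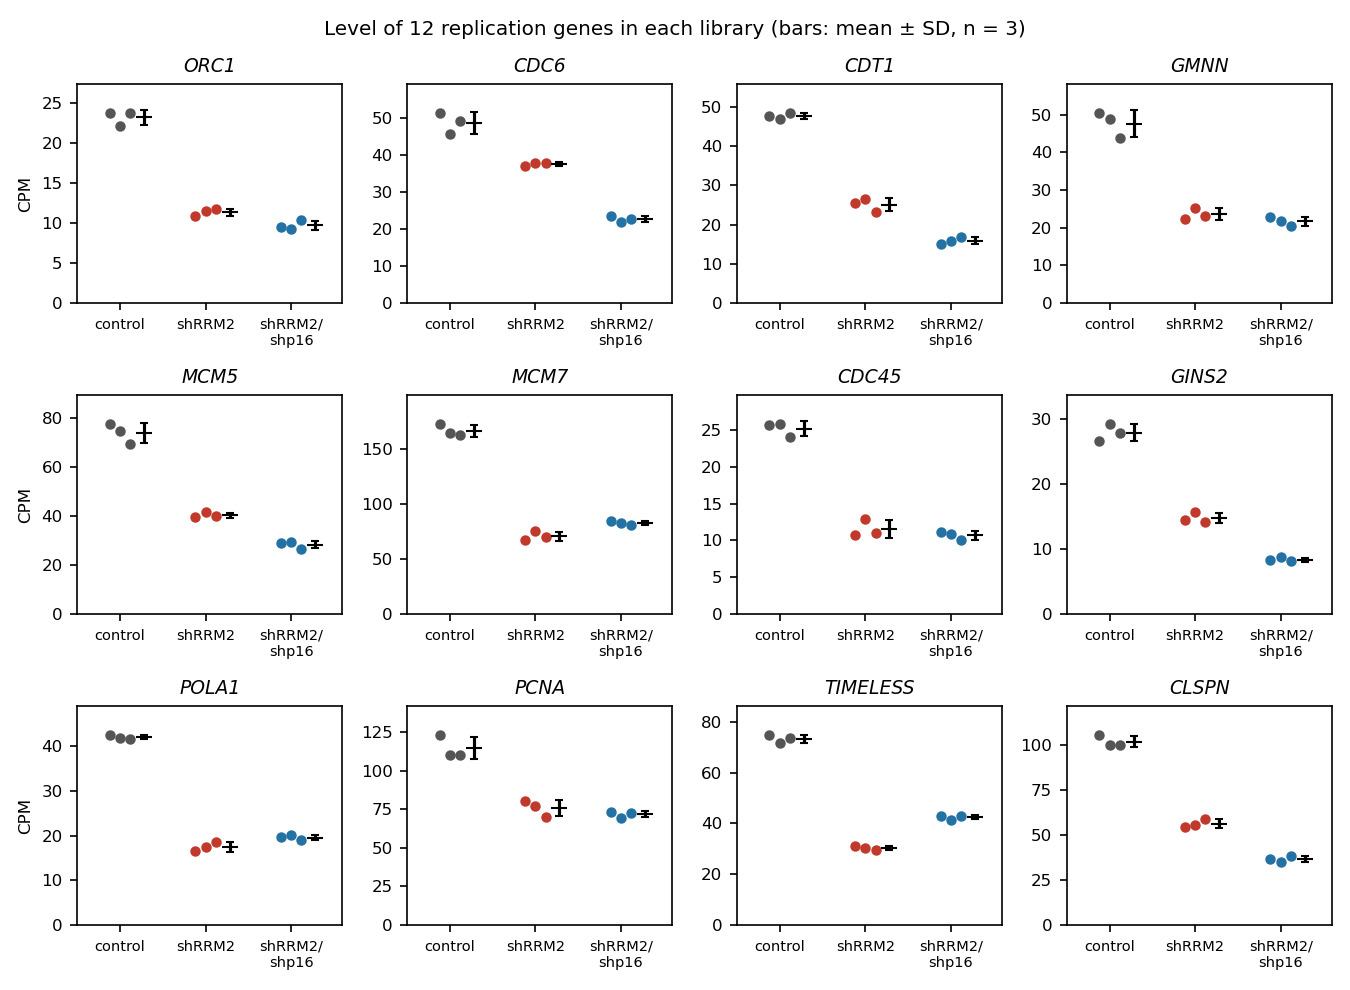
Level in CPM (vertical axis, from 0) of 12 replication genes in each library, with points for the 3 libraries of each group and bars for mean ± SD. Every gene is highest in control, and CDC6, CDT1, MCM5, GINS2 and CLSPN are lowest in shRRM2/shp16 while MCM7, POLA1 and TIMELESS are lowest in shRRM2.

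All 6 subunits of the MCM helicase ring, and MCM8, fell in shRRM2, with a group median of -0.90. MCM2, a subunit that also binds histones, stood at 76.1, 70.7 and 69.3 CPM in control, 34.4, 37.1 and 36.8 in shRRM2 and 30.7, 26.9 and 29.5 in shRRM2/shp16. MCM3 stood at 119, 118 and 113 CPM in control, 64.3, 64.3 and 66.8 in shRRM2 and 57.6, 58.0 and 61.7 in shRRM2/shp16. MCM4, which fell least in this group at -0.75 ± 0.04, stood at 164, 157 and 159 CPM in control, 98.5, 95.6 and 92.6 in shRRM2 and 69.8, 72.2 and 74.4 in shRRM2/shp16. In these 3 subunits every shRRM2 library lay below every control library and every shRRM2/shp16 library below every shRRM2 library. MCM5, which closes the gate of the ring with MCM2, stood at 77.6, 74.8 and 69.5 CPM in control, 39.6, 41.5 and 40.0 in shRRM2 and 29.1, 29.4 and 26.6 in shRRM2/shp16. MCM6 stood at 69.7, 69.7 and 65.8 CPM in control, 38.0, 37.9 and 34.1 in shRRM2 and 27.5, 28.4 and 29.8 in shRRM2/shp16. Both followed the same order with no overlap, and MCM5 fell most of the group with the p16 hairpin, at -0.51 ± 0.06 (adjusted p = 1.95e-10), to 38.3% of control. MCM7 stood at 172, 164 and 162 CPM in control, 67.1, 75.1 and 70.0 in shRRM2 and 84.3, 83.0 and 80.8 in shRRM2/shp16. MCM7 fell most of the group in shRRM2, at -1.23 ± 0.04 (adjusted p = 2.05e-28), and was the only ring subunit to rise with the p16 hairpin, at 0.22 ± 0.04 (adjusted p = 1.39e-05), in this fit and under all 18 alternative settings. MCM8, a paralog that works in recombination and is no part of the ring, averaged 47.3, 23.3 and 21.9 CPM and was not called between the hairpin groups, at -0.09 ± 0.07 (adjusted p = 0.24).

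The log2 fold changes of the other ring subunits in shRRM2/shp16 against shRRM2 were -0.32 for MCM2, -0.14 for MCM3, -0.41 for MCM4 and -0.36 for MCM6, all past the threshold. The MCM3 call was lost with total-count scaling (adjusted p = 0.106) and with limma on the authors' RPKM (0.182). The RNA of these subunits, whose proteins form a ring with 1 copy of each, thus shifted in its proportions. Per length, in RPKM (CPM divided by gene length in kilobases), MCM7 had the highest level of the 6 in control at 37.9 ± 1.21 and MCM5 the lowest at 10.1 ± 0.556 (SD, n = 3). Summed RPKM of MCM2 to MCM7 went from 135 ± 4.14 in control to 69.8 ± 1.25 in shRRM2 and 62.3 ± 0.704 in shRRM2/shp16. MCM7 made up 28.2%, 27.9% and 28.3% of that sum in the control libraries, 22.2%, 24.1% and 23.1% in shRRM2 and 30.9%, 30.6% and 29.2% in shRRM2/shp16. Its share was lowest in shRRM2 and highest in shRRM2/shp16 without overlap (exact permutation p = 0.1 for each pair, the smallest possible). The ratio of MCM7 to MCM5 moved in the same way, from 3.76 ± 0.12 to 2.93 ± 0.10 and 4.89 ± 0.19. In the annotation, 8.94% of the exon bases of MCM7 overlap AP4M1 on the opposite strand, and 22.7% of those of MCM2 overlap AC023593.1 on the opposite strand. The strand setting of the counting is not given in the sources used here, so reads of such pairs cannot be told apart.

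**Figure D4:**
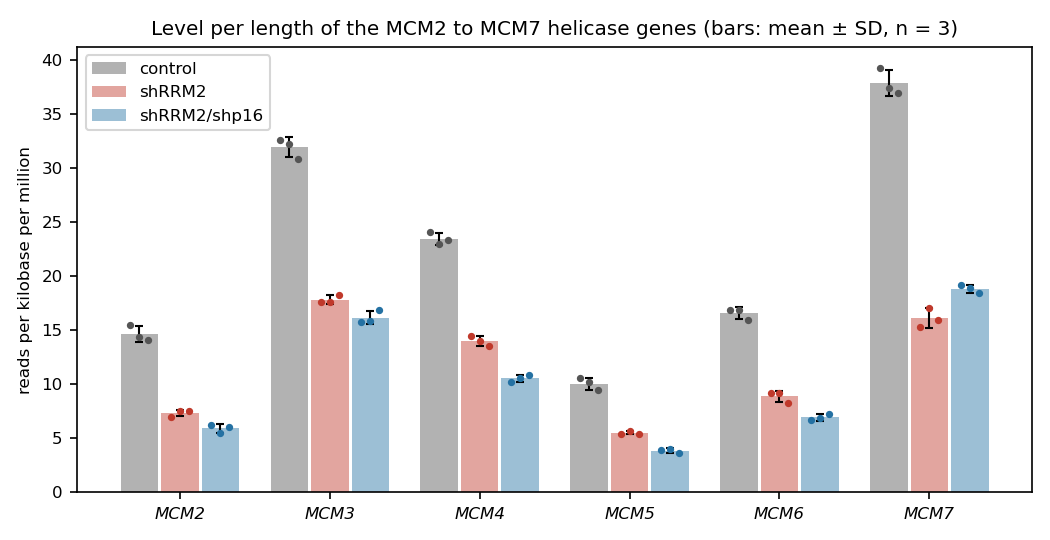
Level per length (RPKM, vertical axis from 0) of MCM2 to MCM7 in the 3 groups, with bars for the mean, error bars for SD and points for the 3 libraries. MCM7 falls furthest in shRRM2 and is the single subunit whose shRRM2/shp16 bar exceeds its shRRM2 bar.

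The 12 firing genes all fell in shRRM2 (median -0.94), and 7 of them fell again in shRRM2/shp16 while none rose. CDC45, a component of the active helicase, stood at 25.7, 25.8 and 24.1 CPM in control, 10.7, 13.0 and 11.1 in shRRM2 and 11.2, 10.9 and 10.0 in shRRM2/shp16. The log2 fold change in shRRM2 against control was -1.12 ± 0.08, and the hairpin groups overlapped, at -0.12 ± 0.09 (adjusted p = 0.272). GINS, a complex of 4 subunits, joins the MCM ring beside CDC45. GINS2 stood at 26.6, 29.2 and 27.8 CPM in control, 14.4, 15.6 and 14.2 in shRRM2 and 8.24, 8.71 and 8.17 in shRRM2/shp16. It had the lowest log2 fold change of all 53 members in shRRM2/shp16 against shRRM2, -0.82 ± 0.09 (adjusted p = 7.88e-11), and ended at 30.0% of control with the 3 groups separated. GINS1 averaged 40.3, 23.9 and 14.8 CPM, GINS3 13.1, 7.51 and 5.09 CPM, and GINS4 51.3, 32.2 and 20.7 CPM. Between the hairpin groups these 3 fell, with log2 fold changes of -0.69 ± 0.07, -0.56 ± 0.12 and -0.63 ± 0.06, in this fit and under all 18 alternatives. Summed over GINS1 to GINS4, RPKM was 30.4 ± 1.18 in control, 17.7 ± 0.363 in shRRM2 and 11.0 ± 0.270 in shRRM2/shp16 (SD, n = 3; exact permutation p = 0.1 for each pair). In GINS4, 21.2% of the exon bases overlap AC009630.2 on the opposite strand.

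DBF4, the activating subunit of the CDC7 kinase, stood at 25.3, 27.1 and 26.3 CPM in control, 13.4, 10.3 and 11.3 in shRRM2 and 11.5, 12.6 and 12.5 in shRRM2/shp16. It fell most of the firing genes in shRRM2, at -1.17 ± 0.08 (adjusted p = 9.46e-17), and its hairpin groups overlapped, at 0.07 ± 0.09 (adjusted p = 0.543). CDC7 itself averaged 17.8, 8.54 and 7.96 CPM, with -1.06 ± 0.09 in shRRM2 against control and -0.10 ± 0.10 (adjusted p = 0.424) between the hairpin groups. DONSON, which helps deliver GINS to the helicase, stood at 26.1, 25.3 and 26.0 CPM in control, 17.6, 20.1 and 16.8 in shRRM2 and 14.1, 12.2 and 11.9 in shRRM2/shp16. It fell least of the firing genes in shRRM2, at -0.51 ± 0.07, and fell again, at -0.52 ± 0.08 (adjusted p = 7.28e-07), from shRRM2 to shRRM2/shp16, with no overlap. TICRR, the scaffold also called treslin, and MCM10, which helps the helicase start, averaged 58.4, 26.4 and 22.1 CPM and 44.3, 22.8 and 19.1 CPM. Their log2 fold changes between the hairpin groups, -0.26 ± 0.06 (adjusted p = 0.000587) and -0.26 ± 0.07 (adjusted p = 0.00131), did not pass with limma on the authors' RPKM (adjusted p = 0.0522 and 0.0703). TOPBP1, the partner of TICRR, averaged 99.0, 66.4 and 66.3 CPM and was not called between the hairpin groups, at 0.00 ± 0.04 (adjusted p = 1). RECQL4, a helicase of the RecQ family, averaged 29.6, 13.5 and 12.4 CPM and was called between the hairpin groups in 1 of 18 alternatives, without shRRM2 replicate c (adjusted p = 0.025).

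The 10 polymerase genes fell in shRRM2 with a median of -0.79, and split between the hairpin groups into 5 lower, 1 higher and 4 not called. PRIM1, the catalytic subunit of primase, stood at 9.68, 10.1 and 8.16 CPM in control, 3.75, 3.92 and 2.98 in shRRM2 and 4.38, 4.23 and 3.06 in shRRM2/shp16. It had the lowest log2 fold change of all 53 members in shRRM2, -1.40 ± 0.14 (adjusted p = 5.11e-12), and its hairpin groups overlapped. PRIM2, the large primase subunit, stood at 38.1, 39.1 and 37.7 CPM in control, 30.1, 28.3 and 29.0 in shRRM2 and 21.6, 23.6 and 20.6 in shRRM2/shp16. PRIM2 fell least of the group in shRRM2, at -0.39 ± 0.06, and again, at -0.41 ± 0.06 (adjusted p = 3.72e-07), from there to shRRM2/shp16. In shRRM2 the primase subunits thus stood at 38.1% (PRIM1) and 76.2% (PRIM2) of their control levels. POLA1, the catalytic subunit of polymerase alpha, stood at 42.5, 41.9 and 41.7 CPM in control, 16.4, 17.5 and 18.5 in shRRM2 and 19.7, 20.1 and 18.9 in shRRM2/shp16. Its log2 fold change in shRRM2 was -1.26 ± 0.06 (adjusted p = 1.03e-21) with no overlap, but its rise to shRRM2/shp16, 0.16 ± 0.07 (adjusted p = 0.0447), was close to the threshold. That rise was lost without shRRM2 replicate a or b or shRRM2/shp16 replicate a or b (adjusted p = 0.0807 to 0.18), and under 6 other settings. POLA2, the accessory subunit of the same enzyme, fell in both steps, averaging 48.7, 27.7 and 21.3 CPM, with -0.38 ± 0.07 (adjusted p = 3.07e-06) between the hairpin groups.

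The catalytic subunit of polymerase epsilon, POLE, averaged 102, 60.3 and 47.4 CPM and fell in both steps, at -0.77 ± 0.04 and -0.35 ± 0.05 (adjusted p = 5.27e-08). POLE2, its second subunit, stood at 8.76, 9.78 and 7.09 CPM in control, 4.51, 3.63 and 5.39 in shRRM2 and 3.43, 3.29 and 2.42 in shRRM2/shp16. The 3 groups did not overlap, but the call between the hairpin groups, -0.56 ± 0.17 (adjusted p = 0.00394), was lost without shRRM2 replicate c (adjusted p = 0.0615) and with limma on the authors' RPKM (0.145). POLE3, a histone-fold subunit, averaged 68.3, 44.9 and 41.1 CPM, and its hairpin groups overlapped. The POLE3 call between them, -0.13 ± 0.05 (adjusted p = 0.0378), was lost without shRRM2 replicate b or c or shRRM2/shp16 replicate b or c (adjusted p = 0.0755 to 0.294). It was also lost with no low-count filter, total counts, DESeq2 and limma on the authors' RPKM (adjusted p = 0.0617 to 0.381). Of polymerase delta, the catalytic POLD1 averaged 32.7, 16.6 and 16.9 CPM, POLD2 72.1, 43.2 and 40.3 CPM, and POLD3 38.5, 23.5 and 24.9 CPM. None of these 3 delta subunits was called between the hairpin groups, with log2 fold changes of 0.02 ± 0.08, -0.10 ± 0.05 and 0.08 ± 0.07. POLD2 was called lower there without shRRM2/shp16 replicate a (adjusted p = 0.03) and with upper-quartile scaling (0.0384). In the annotation, 35.1% of the exon bases of POLA2 are shared with AP000944.2 on the same strand.

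PCNA, the sliding clamp that tethers polymerases to DNA, stood at 123, 110.5 and 110.5 CPM in control, 80.5, 77.3 and 70.3 in shRRM2 and 73.2, 69.6 and 72.7 in shRRM2/shp16. It fell in shRRM2, at -0.60 ± 0.05, and the hairpin groups overlapped, at -0.08 ± 0.05 (adjusted p = 0.137), a difference called without shRRM2 replicate c (adjusted p = 0.0184). Per length PCNA had the highest level of the 53 genes in control, at 78.0 ± 4.98 RPKM, and GINS3 the lowest, at 2.56 ± 0.145 RPKM. RFC5, a small subunit of the clamp loader, stood at 21.2, 20.6 and 23.0 CPM in control, 9.27, 11.3 and 11.7 in shRRM2 and 11.4, 12.4 and 12.5 in shRRM2/shp16. It fell most of its group in shRRM2, at -0.997 ± 0.08 (adjusted p = 7.81e-14), and was not called between the hairpin groups, at 0.17 ± 0.09 (adjusted p = 0.122), except with total counts (adjusted p = 0.0333) and limma on the authors' RPKM (0.0226). Leaving out 1 library at a time moved this value between 0.08 (without shRRM2 replicate a) and 0.23 (without shRRM2 replicate c). RFC1, the large subunit of the clamp loader, stood at 64.4, 65.3 and 65.2 CPM in control, 63.2, 63.1 and 60.5 in shRRM2 and 56.5, 57.8 and 52.9 in shRRM2/shp16. RFC1 was the member nearest to its control level in shRRM2, at -0.06 ± 0.04 (adjusted p = 0.231), and fell, at -0.16 ± 0.05 (adjusted p = 0.00238), from shRRM2 to shRRM2/shp16, a call lost with total counts (adjusted p = 0.0584). RFC3 stood at 33.8, 32.7 and 33.9 CPM in control, 17.8, 18.1 and 16.3 in shRRM2 and 13.4, 14.9 and 14.0 in shRRM2/shp16. RFC3 fell in both steps with the groups separated, the second at -0.30 ± 0.08 (adjusted p = 0.00081). RFC2 and RFC4 averaged 41.4, 25.1 and 20.5 CPM and 27.2, 14.5 and 12.8 CPM, with -0.29 ± 0.06 (adjusted p = 0.000141) and -0.18 ± 0.08 (adjusted p = 0.0618) between the hairpin groups. RFC4 was called lower there with at least 10 counts in every library (adjusted p = 0.0473) and with upper-quartile scaling (0.0341).

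The 5 genes of single-strand binding and Okazaki fragment processing fell in shRRM2 with a median of -0.91. RPA3, the smallest subunit of replication protein A, stood at 13.6, 14.9 and 13.9 CPM in control, 6.79, 8.48 and 7.00 in shRRM2 and 7.71, 7.27 and 8.71 in shRRM2/shp16. RPA2, the middle subunit, stood at 34.7, 34.8 and 33.0 CPM in control, 26.3, 29.3 and 25.8 in shRRM2 and 26.3, 28.4 and 26.3 in shRRM2/shp16. RPA3 fell most of the group in shRRM2, at -0.92 ± 0.10 (adjusted p = 8.29e-11), RPA2 least, at -0.33 ± 0.06 (adjusted p = 7.39e-06), and the hairpin groups overlapped in both. RPA1, the large subunit, averaged 109, 69.0 and 64.7 CPM. Its call between the hairpin groups, -0.09 ± 0.04 (adjusted p = 0.0495), was lost when any of the 9 libraries was left out (adjusted p = 0.0579 to 0.222). The RPA1 call was also lost with no low-count filter, total counts, DESeq2 and limma on the authors' RPKM (adjusted p = 0.0631 to 0.505). FEN1, the flap endonuclease that trims Okazaki fragments, stood at 73.4, 72.0 and 72.9 CPM in control, 36.8, 40.3 and 38.1 in shRRM2 and 31.7, 30.0 and 29.7 in shRRM2/shp16. FEN1 fell in both steps without overlap, at -0.92 ± 0.05 and -0.34 ± 0.05 (adjusted p = 7.61e-07). LIG1, the ligase that seals the fragments, averaged 53.6, 28.7 and 27.2 CPM and did not separate between the hairpin groups, at -0.08 ± 0.07 (adjusted p = 0.317), a value that ran from -0.12 without shRRM2 replicate b to -0.04 without shRRM2 replicate c.

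The fork protection genes went in opposite directions with the p16 hairpin. TIMELESS, which forms a complex with TIPIN at the fork, stood at 74.8, 71.5 and 73.5 CPM in control, 31.2, 30.5 and 29.4 in shRRM2 and 43.0, 41.4 and 42.7 in shRRM2/shp16. It fell most of the group in shRRM2, at -1.27 ± 0.05 (adjusted p = 1.08e-25), and then had the highest log2 fold change of the 53 members in shRRM2/shp16 against shRRM2, 0.48 ± 0.05 (adjusted p = 8.79e-11), with every group separated. CLSPN, the claspin adaptor that passes the checkpoint signal to CHK1, stood at 106, 100.2 and 100.4 CPM in control, 54.6, 55.7 and 59.2 in shRRM2 and 36.8, 35.0 and 38.4 in shRRM2/shp16. CLSPN fell in both steps, at -0.86 ± 0.04 and -0.62 ± 0.05 (adjusted p = 1.34e-14), and ended at 36.0% of control. Per length, the ratio of TIMELESS to CLSPN was 0.667 ± 0.012 in control, 0.501 ± 0.035 in shRRM2 and 1.08 ± 0.04 in shRRM2/shp16 (SD, n = 3; exact permutation p = 0.1 for each pair, the smallest possible). TIPIN stood at 10.8, 11.9 and 8.94 CPM in control, 6.28, 6.86 and 8.95 in shRRM2 and 7.08, 6.57 and 6.13 in shRRM2/shp16. TIPIN fell least of the group in shRRM2, at -0.52 ± 0.12 (adjusted p = 0.000159), and its control and shRRM2 libraries overlapped. The ratio of TIMELESS to TIPIN was 3.34 ± 0.53, 2.00 ± 0.41 and 3.06 ± 0.22, and did not separate shRRM2/shp16 from control (exact permutation p = 0.7). WDHD1, which couples polymerase alpha to the helicase, averaged 40.0, 27.4 and 20.1 CPM, with -0.44 ± 0.07 (adjusted p = 1.32e-07) between the hairpin groups. Of the exon bases of TIPIN, 21.0% are shared with the pseudogene RPL9P25 on the same strand.

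**Figure D5:**
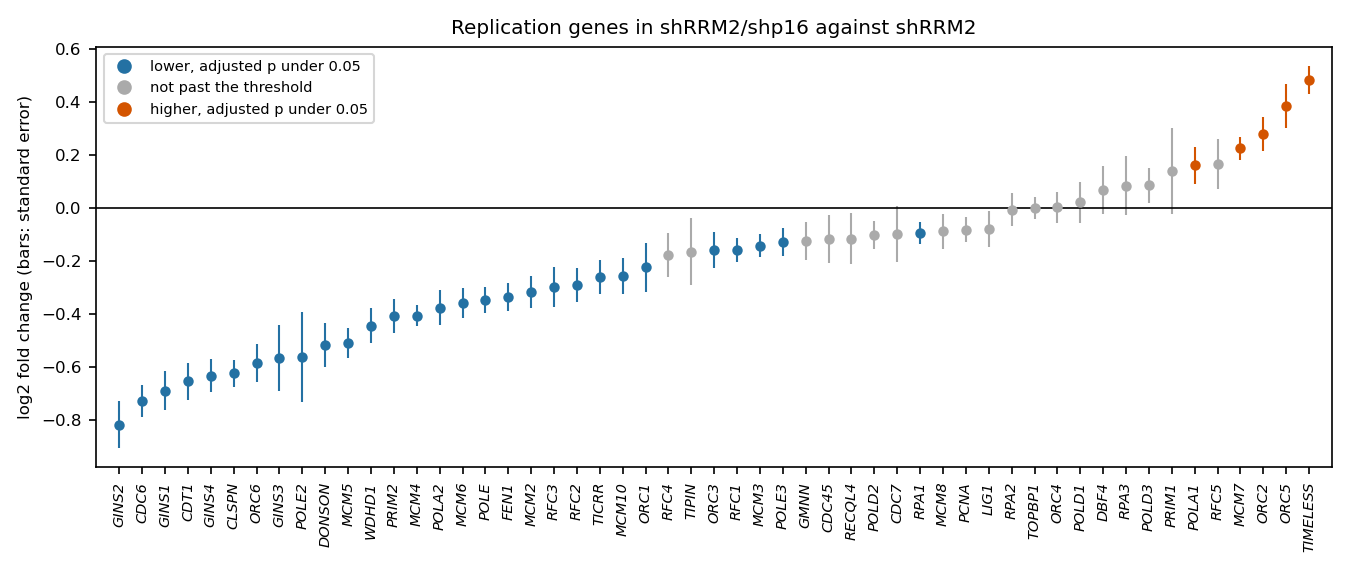
Log2 fold change in shRRM2/shp16 against shRRM2 (vertical axis, bars are standard errors from edgeR) of the 53 genes in rank order, coloured by whether the adjusted p was under 0.05. GINS2 at -0.82 and CDC6 at -0.73 stand at the low end, TIMELESS at 0.48 at the high end, and 19 genes are not past the threshold.

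Of the 34 calls between the hairpin groups, 24 passed the threshold with the same sign in each of 18 alternative settings, 20 lower and 4 higher. The 10 that were lost under at least 1 setting were ORC1, ORC3, MCM3, MCM10, TICRR, POLA1, POLE2, POLE3, RFC1 and RPA1. Of these POLE2 had the largest change in size, at -0.56. The 4 that remained higher were ORC2, ORC5, MCM7 and TIMELESS.

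Other genes of the replication pathway were counted from 3 further lists, whose counts stand beside the same shares of all tested genes: 31.8% lower and 29.0% higher in shRRM2 against control, 29.1% and 31.9% between the hairpin groups, and 32.4% and 30.0% in shRRM2/shp16 against control. Of 25 other replication genes (topoisomerases, RNase H2, alternative clamp loaders and others), 21 fell and 1 rose in shRRM2, while between the hairpin groups 6 fell and 11 rose. Their median log2 fold changes were -0.56 and 0.09 in these comparisons, beside -0.86 and -0.16 for the 53 members. In shRRM2 against control RNASEH2A, the catalytic subunit of RNase H2, was lowest at -1.71 ± 0.06 and POLD4, the smallest subunit of polymerase delta, highest at 0.52 ± 0.15. Between the hairpin groups DTL, the adaptor of the ubiquitin ligase that removes CDT1, was lowest at -0.93 ± 0.06 and TOP2A, which untangles replicated DNA, highest at 0.74 ± 0.03. Against control, shRRM2/shp16 had 19 of the 25 lower and 4 higher, with FBXO5, an inhibitor of the anaphase-promoting complex, lowest at -1.32 ± 0.05 and POLD4 highest at 0.37 ± 0.15.

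All 13 genes of replication-coupled chromatin assembly fell in shRRM2 (median -0.75), from UHRF1, which recruits DNA methyltransferase to new DNA, at -1.21 ± 0.04 to RBBP4, a histone-binding subunit, at -0.38 ± 0.03. Between the hairpin groups 5 fell and 5 rose, against 29.1% and 31.9% of all tested genes, with the assembly factor CHAF1B lowest at -0.91 ± 0.09 and the histone chaperone ASF1A highest at 0.58 ± 0.08. Against control, 12 were lower and 1 higher in shRRM2/shp16, from UHRF1 at -1.73 ± 0.04 to RBBP4 at 0.10 ± 0.03. Of 13 replication checkpoint genes, 8 fell and 1 rose in shRRM2 (median -0.47), between RHNO1, a partner of the checkpoint clamp, at -0.93 ± 0.07 and the kinase ATM at 0.43 ± 0.04. Between the hairpin groups 4 of them fell, near the share of all genes, and 6 rose, with the phosphatase CDC25A lowest at -0.53 ± 0.07 and the kinase CHEK2 highest at 0.48 ± 0.11. In shRRM2/shp16 against control 8 were lower and 2 higher, from CDC25A at -0.995 ± 0.06 to ETAA1, an activator of ATR, at 0.62 ± 0.10. RAD17 of this list has 2 identifiers with few reads, and its value is uncertain.

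The authors' deposited table holds their own fold changes and q-values for shRRM2/shp16 against shRRM2. By the authors' deposited table, a total of 11 of the 53 members had a q-value under 0.05, 9 lower and 2 higher, where 13.6% of the tested genes were lower and 14.9% higher by that rule. The 9 lower in the authors' deposited table were ORC6, CDC6, CDT1, MCM5, MCM6, GINS1, RFC3, CLSPN and WDHD1, and the 2 higher were ORC5 and TIMELESS. All 11 were also called from the counts with the same sign, and 23 of the 34 members called from the counts were not called in the authors' deposited table. For CDC6 the authors' deposited table gives a log2 fold change of -0.91 (q = 0.000444), and for TIMELESS 0.53 (q = 0.000444). GINS2, the member with the lowest log2 fold change in the counts, is listed in the authors' deposited table at -0.53 with q = 0.262, and MCM7 at 0.22 with q = 0.46.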

How the data were processed

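Gene-level RNA-seq counts of 9 IMR90 libraries were used, 3 per group. The authors deposited 1 file of raw counts per library, with Ensembl gene identifiers, whose closing tally lines have the layout of HTSeq. Their table holds a log2 RPKM value per library and, per the file headers, the authors' log2 fold change, p-value and q-value of their own comparison of the 2 hairpin groups. TopHat2 2.0.9, Cufflinks 2.0.2, Cuffdiff and the build GRCh38 are named, per the submitters' processing notes. Which program made which values is not given in the sources used here, nor is the strand setting or the release of the annotation. Libraries were ribosome-depleted and stranded, per the labels' protocols. Lines without a gene name entered neither library sizes nor tests: reads in no gene were 17.6% to 28.8% and ambiguous reads 3.74% to 6.02% of those aligned uniquely, and non-unique alignments 40.4% to 44.9% of all entries. For shRRM2 replicate c the log2 RPKM column disagrees with the counts, while the other 8 columns match, so the alternative that uses RPKM leaves it out. There were 0 per-sample columns that matched no sample.

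The test was that of edgeR 4.0.16, run in R 4.3.3 (filterByExpr, TMM, quasi-likelihood fit of all 9 libraries with a coefficient per group, 6 residual degrees of freedom), two-sided, with Benjamini-Hochberg adjustment over all 16561 genes tested, which hold 99.8% of the counts. Standard errors were calculated from each log2 fold change and F statistic. RPKM levels are TMM-scaled CPM divided by the gene length implied by the authors' RPKM values. Depth was 15770895 to 24873291 counts, and reads carried no molecular identifiers, so their counting error is a lower limit. No replicate pair agreed within sampling noise (chi-square over its degrees of freedom 1.44 to 2.97). Alternatives were RLE, upper-quartile (chosen after seeing the data) and no scaling factors, 2 other filters, DESeq2 1.42.0, limma 3.58.1 on log2(RPKM + 0.1), the 6 libraries compared, a replicate block and leaving out each library. The scripts were tested on simulated data. Overlaps come from GENCODE release 29 and promoters from RefSeq. Every member is named; values in every library are given for MCM2 to MCM7, ORC1, CDC6, CDT1, GMNN, CDC45, PCNA and, in each role group, for the lowest and highest log2 fold change in shRRM2 against control and between the hairpin groups. Of the other lists, the lowest and highest gene in each comparison is named. The members and lists were chosen with earlier results of these data known.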

Additional observations from a re-analysis of the deposited data

How the results depend on the processing

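Over 18 alternatives the number of members called lower in shRRM2 against control was 50 or 51 with ORC4 higher throughout, and in shRRM2/shp16 against control 50 to 52. Between the hairpin groups it was 21 to 31 lower and 4 to 6 higher, against 29 and 5, with the fewest lower for limma on the authors' RPKM. Replicate letters are shared between groups, but they did not pair the libraries (same-letter correlations of deviations -0.027 to 0.073, others -0.071 to 0.05). With the replicate block, 51 members were lower in shRRM2 against control, 28 lower and 5 higher between the hairpin groups, and 51 lower in shRRM2/shp16 against control; it brought ORC3 past the threshold in shRRM2 against control (adjusted p = 0.0499), took RPA1 out of the calls between the hairpin groups (0.0525) and changed no other member's call. Scaling moved all genes: the median log2 fold change of all tested genes was 0.11 in shRRM2 against control with upper-quartile scaling, with 61.5% of all calls higher against 47.7%, and 0.12 in shRRM2/shp16 against control with total counts (59.7% against 48.1%). Relative to all genes the members' medians were -0.86 and -1.12 under both. No called member changed sign. The values that changed sign belonged to members not called in that comparison, and ran from -0.0468 for ORC4 to 0.0602 for TOPBP1. The cause was not tested. In shRRM2 against control RFC1 was at 0.0439 with upper-quartile scaling and 0.0043 with limma. The rest are between the hairpin groups. ORC4 was at -0.0080 with at least 10 counts in every library, -0.0080 with RLE, -0.0217 with upper-quartile scaling, -0.0084 with DESeq2 and -0.0060 with only the 6 libraries compared. TOPBP1 was at 0.0174 with no filter, 0.0602 with total counts, 0.0580 with limma and 0.00 with the block. RPA2 was at 0.0107 with no filter, 0.0538 with total counts and 0.0175 with limma. POLD1 was at -0.0027 with upper-quartile scaling, and with limma LIG1 was at 0.0139 and TIPIN at 0.0583. Leaving out 1 library at a time gave -0.0468 to 0.0447 for ORC4, -0.0187 to 0.0190 for TOPBP1, -0.0432 to 0.0545 for RPA2, -0.0433 to 0.0789 for POLD1, -0.2611 to 0.0015 for TIPIN and -0.0138 to 0.1726 for DBF4. Where a library was left out, its group's remaining 2 shared the spread of the others.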
